A study of Mus musculus with 12 samples.

Results

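The 10 genes described here belong to the NF-kB pathway and were followed in mouse osteoclast precursor cells given dexamethasone. Of them, 4 changed by small amounts, beside 15.5% of all tested genes. The changes of Nfkb2 and Nfkbie passed in only 7 and 11 of 18 fits that left out 1 library or batch. The set was chosen by gene symbol from the pathway's known parts: 5 transcription factor subunits (Nfkb1, Nfkb2, Rela, Relb and Rel), 3 cytoplasmic inhibitors (Nfkbia, Nfkbib and Nfkbie) and 2 deubiquitinases (Tnfaip3 and Cyld). All 10 were present among the 28293 genes of the deposited count table, and all 10 were among the 13775 genes that passed the filter on low counts. RNA sequencing covered 6 RANKL+Dex and 6 RANKL libraries, 1 of each group in each of 6 batches. RANKL+Dex cells received 25 ng/ml RANKL with 1e-08 M (10 nM) dexamethasone, a synthetic glucocorticoid, for 24 h, and RANKL cells received 25 ng/ml RANKL alone for 24 h. Both groups were wild-type (WT) primary cells from bone marrow of male C57BL/6J mice aged 6 months, expanded in 10 ng/ml M-CSF and induced toward osteoclasts with RANKL and 10 ng/ml M-CSF.

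NF-kB proteins work as dimers that are held in the cytoplasm until a signal destroys their inhibitors. In the canonical branch, the IKK kinase complex marks IkB proteins for degradation and frees dimers of RELA or c-REL with p50, the product of Nfkb1. In the non-canonical branch, the kinase NIK triggers processing of p100, the precursor encoded by Nfkb2, into p52, which pairs with RELB. RANKL engages both branches, and mice that lack Nfkb1 and Nfkb2 together form no osteoclasts. Glucocorticoids are known to restrain NF-kB driven transcription in macrophages. The values here are messenger RNA levels, whereas much of the pathway's control acts on the proteins.

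Many genes of the pathway are themselves NF-kB targets, which is why the stretches before their starts are shown. The 250 bases upstream of the outermost start in RefSeq (GRCm38.p6) were available for 8 of the 10 genes (Nfkb2, Rela, Rel, Nfkbia, Nfkbib, Nfkbie, Tnfaip3 and Cyld). A match to the kB consensus, the degenerate 10-base NF-kB site read on both strands, was found in 6 of these 8 windows and in 7.25% of all 32851 windows. The 32851 windows cover every listed start, so a gene can count more than once among them. Rela and Nfkbib were the 2 genes without a match. The 4 windows below belong to the genes whose level changed, written 5′ to 3′ on the gene's strand with kB matches in capitals.
Nfkb2: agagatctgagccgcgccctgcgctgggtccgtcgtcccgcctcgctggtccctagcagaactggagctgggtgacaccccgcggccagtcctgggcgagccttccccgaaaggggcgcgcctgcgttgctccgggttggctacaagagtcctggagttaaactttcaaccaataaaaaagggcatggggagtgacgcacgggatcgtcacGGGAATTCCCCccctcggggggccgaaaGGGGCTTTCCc
Nfkbie: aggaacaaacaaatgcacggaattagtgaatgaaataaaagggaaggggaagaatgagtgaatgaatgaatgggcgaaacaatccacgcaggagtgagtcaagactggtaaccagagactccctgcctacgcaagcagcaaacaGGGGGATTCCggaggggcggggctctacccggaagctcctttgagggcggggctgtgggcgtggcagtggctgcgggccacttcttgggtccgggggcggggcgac
Nfkbib: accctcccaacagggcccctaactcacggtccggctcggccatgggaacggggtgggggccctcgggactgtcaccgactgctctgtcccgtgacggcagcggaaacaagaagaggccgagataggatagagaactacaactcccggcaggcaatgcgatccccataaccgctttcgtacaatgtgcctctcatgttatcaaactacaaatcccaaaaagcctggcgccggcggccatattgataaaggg
Cyld: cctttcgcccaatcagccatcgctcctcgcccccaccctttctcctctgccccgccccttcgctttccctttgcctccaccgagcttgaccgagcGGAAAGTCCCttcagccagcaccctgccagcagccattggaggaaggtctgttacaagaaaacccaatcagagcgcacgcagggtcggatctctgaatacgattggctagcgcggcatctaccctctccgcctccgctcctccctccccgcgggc

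The Nfkb2 window (chr19:46304487-46304736, plus strand) held 3 matches, of which the first 2 overlap by all but 1 base and begin 39 and 38 bases before the start, while the third begins 11 bases before it. Nfkb2 has 3 listed starts, and the window belongs to the outermost. Single matches began 106 bases before the start of Nfkbie (chr17:45555450-45555699, plus strand) and 155 bases before that of Cyld (chr8:88696778-88697027, plus strand). For Nfkbib the window was chr7:28766645-28766894 on the minus strand. The palindromic glucocorticoid response element (AGAACA, 3 bases of any kind, TGTTCT) was in 0 of the 8 windows and in 3 of all 32851, and its 6-base arm AGAACA, read on both strands, was in 0 of the 8 and in 16.1% of all windows. These are matches of letters in short windows and say nothing of binding.

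Library totals ran from 16820193 to 28523595 counts in RANKL+Dex and from 17674405 to 25451498 in RANKL, and the 10 genes together took 0.129% to 0.139% and 0.135% to 0.144% of them. Osteoclast precursor markers, 11 genes that include Ctsk, Acp5 and Mmp9, took 5.01% to 5.37% of counts in RANKL+Dex and 4.92% to 5.20% in RANKL (exact two-sided permutation test, p = 0.0281, adjusted 0.0507 over 9 lists). Of the 11, 5 rose (Calcr by 1.48 on the log2 scale, and Ctsk, Acp5, Oscar and Nfatc1 by 0.15 to 0.20) and Itgb3 fell. All 4 genes used to check the steroid treatment (Fkbp5, Per1, Klf9 and Tsc22d3) rose, with log2 fold changes of 0.93 to 1.46. Markers of other cell types moved with the groups as well. Of 7 macrophage markers 2 fell, or 4 with 1 higher when the batches were a block: Itgam was at 61.1 ± 6.51 CPM in RANKL+Dex and 81.8 ± 11.8 CPM in RANKL (edgeR adjusted p = 0.00432), and Mrc1 at 46.1 ± 3.91 and 59.1 ± 9.69 CPM (0.0137). The whole macrophage list took 0.377% to 0.633% of counts in RANKL+Dex and 0.394% to 0.641% in RANKL (exact permutation adjusted p = 0.448). The other lists stood at trace levels. Neutrophil markers (8 of 8 listed in the table) took 0.000639% to 0.000996% of counts in RANKL+Dex and 0.00233% to 0.00366% in RANKL, and dendritic cell markers (8 of 8) 0.000743% to 0.00091% and 0.00132% to 0.00245% (exact two-sided permutation test, adjusted p = 0.00649 for each, n = 6 per group). Of the 4 dendritic cell markers that passed the filter, H2-Aa and H2-Ab1 fell, by −2.29 and −1.59 on the log2 scale. Xcr1 (0.45, edgeR adjusted p = 0.0940) and Zbtb46 (−0.17, 0.596) did not pass, so the list did not move as 1. The shares in endothelial markers (6 of 6 listed, 0.000166% to 0.000333% against 0.000375% to 0.000593%, exact permutation adjusted p = 0.00649) and B cell markers (4 of 6 listed, 0.000172% to 0.000305% against 0.000282% to 0.000373%, 0.0146) were lower too. Their part in the results below was not tested, and in bulk RNA fewer cells of a type and less RNA per cell cannot be told apart.

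Across the table, dexamethasone changed 2139 of 13775 tested genes (15.5%; 7.98% higher and 7.55% lower), by the quasi-likelihood test of edgeR with a threshold of 0.05 on the adjusted p. Among the 10 NF-kB genes 2 rose (Nfkbib and Cyld) and 2 fell (Nfkbie and Nfkb2), with a median log2 fold change of −0.06 against −0.00 over all tested genes. The largest change was a 1.24-fold rise of Nfkbib. The groups did not overlap for 2 of the 10 genes, as for 7.01% of all tested genes. The direction was the same in all 6 batches for 4 of the 10, as for 21.8% of all tested genes. With the batches as a block the same 4 genes were called, beside 21.8% of all tested genes. Taken without sign, the median log2 fold change of the 10 genes was 0.10, beside 0.11 for all tested genes and 0.27 for all called genes. Levels are given as TMM-scaled CPM, which are counts relative to the size of the library, and fold changes as RANKL+Dex over RANKL with their standard error.

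**Figure D1:**
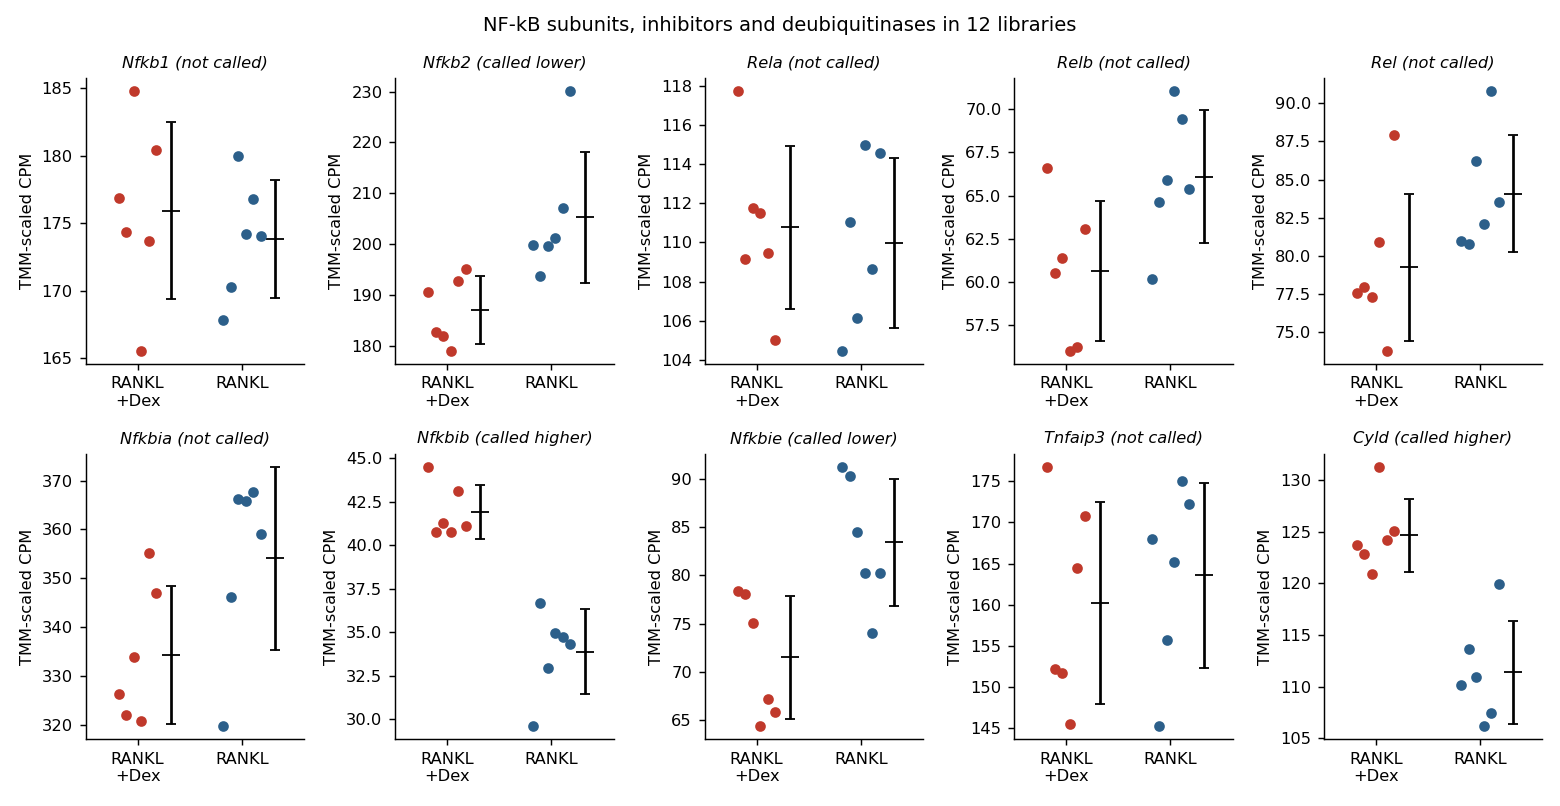
TMM-scaled CPM of the 10 genes in each library (points in the order of batches 1 to 6, RANKL+Dex red and RANKL blue), with the mean and SD of 6 libraries per group in black. The vertical axes do not start at 0. The groups separate fully for Nfkbib and Cyld, while Nfkb2 and Nfkbie overlap in part.

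Per length of exon, Nfkbia stood far above the other 9 genes in both groups, at 208 ± 8.79 CPM per kb in RANKL+Dex and 220 ± 11.6 CPM per kb in RANKL (SD, n = 6). Nfkb2 came next at 40.8 ± 1.45 and 44.8 ± 2.80 CPM per kb, ahead of Rela at 36.1 ± 1.36 and 35.8 ± 1.42. Libraries of these 3 genes did not overlap with each other in either group. In RANKL+Dex the order went on with Nfkbie (23.5), Tnfaip3 (22.2), Nfkbib (19.3), Relb (15.6), Nfkb1 (14.6), Rel (10.6) and Cyld (9.91 CPM per kb). The libraries of Nfkbie and Tnfaip3, Tnfaip3 and Nfkbib, Relb and Nfkb1, and Rel and Cyld overlapped there. In RANKL the order after Rela was Nfkbie (27.4), Tnfaip3 (22.6), Relb (17.0), Nfkbib (15.6), Nfkb1 (14.4), Rel (11.3) and Cyld (8.86 CPM per kb), with overlap between Relb and Nfkbib and between Nfkbib and Nfkb1. Nfkbib therefore ranked above Relb in RANKL+Dex, without overlap between their libraries, and below it in RANKL, with overlap. Exon lengths were those of an annotation of another build, so the order rests on that length.

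**Figure D2:**
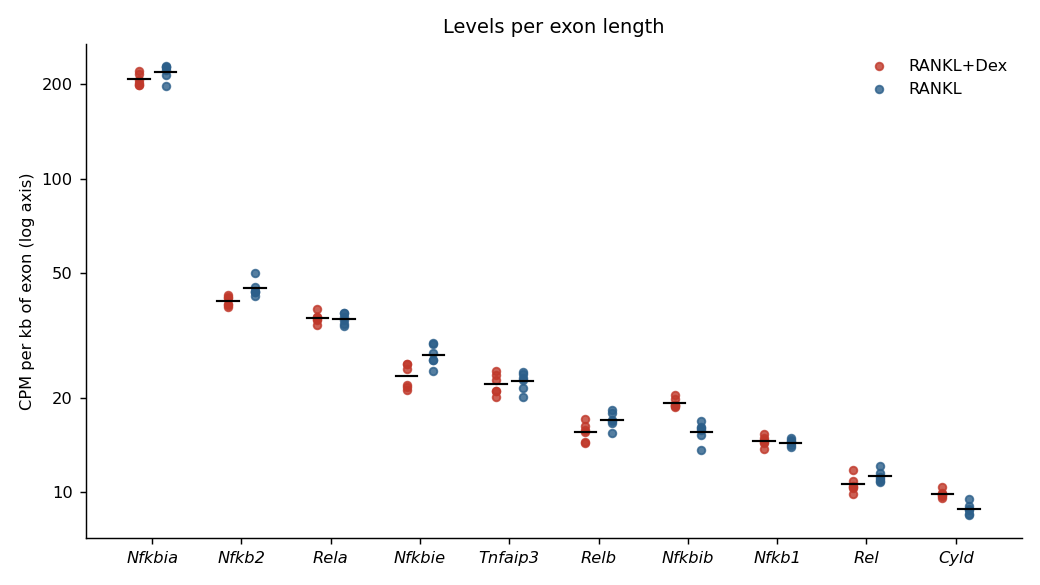
CPM per kb of exon on a log axis for the 10 genes, ordered by their mean in RANKL, with 6 libraries per group (RANKL+Dex red, left, and RANKL blue, right) and the group mean as a black line. Nfkbia lies near 208 and 220 CPM per kb and the other 9 genes between 8.86 and 44.8.

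Among the subunits, only Nfkb2, the precursor gene of the non-canonical branch, was called lower with dexamethasone. Relb differed by a like amount without passing, and the canonical pair Nfkb1 and Rela was level. Nfkb2 (ENSMUSG00000025225, GRCm39 chromosome 19 from 46292759 to 46300824, plus strand) had a lowest, median and highest value of 179, 187 and 195 CPM in RANKL+Dex, against 194, 201 and 230 CPM in RANKL. Only RANKL replicate 2 lay inside the RANKL+Dex range, and RANKL replicate 6 stood highest by a wide gap. Nfkb2 fell (log2 fold change −0.13 ± 0.04, a change of −8.85%, edgeR adjusted p = 0.0380), and it was lower in 6 of 6 batches. The call was close to the threshold. It ended without RANKL+Dex replicate 2, 3 or 4, without RANKL replicate 4, 5 or 6 and without any of batches 2 to 6 (edgeR adjusted p between 0.0542 and 0.115), and with no filter on low counts (0.0511). These fits held no block. With the batches as a block, all 12 libraries gave an edgeR adjusted p of 0.00916 for Nfkb2. Nfkb2 also shares 299 bases with Psd on the opposite strand (317 to 743 counts per library), which fell by 0.50 on the log2 scale (edgeR adjusted p = 0.000553), and with 4833438C02Rik (203 to 320 counts), and the kit is not stated to keep strand.

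Relb (ENSMUSG00000002983, chromosome 7 from 19340142 to 19363363, minus strand), whose protein is the partner of p52, had a lowest, median and highest value of 56.0, 61.0 and 66.6 CPM in RANKL+Dex, against 60.2, 65.6 and 71.0 CPM in RANKL. The groups overlapped, and RANKL+Dex replicate 1 was the highest of its group while RANKL replicate 1 was the lowest of the other. Its log2 fold change was −0.12 ± 0.05 (95% interval −0.23 to −0.02, edgeR adjusted p = 0.109), with lower values in 5 of 6 batches and a higher one in batch 1. Without RANKL+Dex replicate 1 Relb passed (edgeR adjusted p = 0.0443), as it did without batch 1 (0.0160, log2 fold change −0.18).

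Nfkb1 (ENSMUSG00000028163, chromosome 3 from 135290416 to 135397308, minus strand), which encodes p105 and p50, ran from 166 to 185 CPM in RANKL+Dex and from 168 to 180 CPM in RANKL, with medians of 176 and 174 CPM. Rela (ENSMUSG00000024927, chromosome 19 from 5687511 to 5698158, plus strand), which encodes the p65 transactivating subunit, ran from 105 to 118 CPM in RANKL+Dex and from 104 to 115 CPM in RANKL, with medians of 110 CPM in both groups. The ranges of both genes overlapped almost fully, and their 95% intervals of the log2 fold change were −0.05 to 0.09 and −0.07 to 0.09 (edgeR adjusted p = 0.789 and 0.892). The c-REL gene Rel (ENSMUSG00000020275, chromosome 11 from 23686847 to 23720970, minus strand) had a lowest, median and highest value of 73.8, 77.8 and 87.9 CPM in RANKL+Dex, against 80.8, 82.8 and 90.8 CPM in RANKL. Rel differed by −0.09 ± 0.04 on the log2 scale (95% interval −0.18 to 0.01, edgeR adjusted p = 0.221), with the lower value on the RANKL+Dex side in every batch but batch 6.

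The 3 IkB inhibitors went separate ways: Nfkbib rose, Nfkbie fell and Nfkbia did not pass. Nfkbib (ENSMUSG00000030595, chromosome 7 from 28457676 to 28466937, minus strand) encodes IkB-beta, which binds RELA and c-REL dimers. Its lowest, median and highest values were 40.7, 41.2 and 44.5 CPM in RANKL+Dex, against 29.6, 34.6 and 36.7 CPM in RANKL. Every RANKL+Dex library lay above every RANKL library, which held for 3.84% of tested genes. Nfkbib rose 1.24-fold (log2 fold change 0.31 ± 0.05, 95% interval 0.20 to 0.41, edgeR adjusted p = 0.000482), and it was higher in 6 of 6 batches, by 0.15 (batch 2) to 0.59 (batch 1) on the log2 scale. Its counts were the lowest of the set, down to 600 in RANKL replicate 6, where counting error alone gives a coefficient of variation of 4.08%. The coefficient observed between RANKL libraries was 7.16%. Between RANKL+Dex libraries it was 3.67%, and their counts ran from 695 to 1145, so the 4.08% does not apply to them. Nfkbib overlaps Sirt2 by 778 bases on the opposite strand, and Sirt2 (1265 to 2260 counts per library) rose as well, by 0.15 on the log2 scale (edgeR adjusted p = 0.0369). The part of shared reads in the Nfkbib result was not tested.

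Nfkbie (ENSMUSG00000023947, chromosome 17 from 45866629 to 45874095, plus strand) encodes IkB-epsilon, an inhibitor that is itself induced by NF-kB. It had a lowest, median and highest value of 64.4, 71.2 and 78.3 CPM in RANKL+Dex, against 74.0, 82.4 and 91.2 CPM in RANKL. The groups overlapped, since RANKL replicate 5 lay below the 3 highest RANKL+Dex libraries, yet within each batch the RANKL+Dex library was the lower. Nfkbie fell (log2 fold change −0.22 ± 0.06, 95% interval −0.35 to −0.09, a change of −14.2%, edgeR adjusted p = 0.0228). The call ended without RANKL+Dex replicate 4 or 6, without RANKL replicate 1 or 2 and without batch 3, 4 or 6 (edgeR adjusted p between 0.0533 and 0.0729). Those leave-out fits held no block. With the batches as a block, all 12 libraries gave an edgeR adjusted p of 0.000386 for Nfkbie.

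Nfkbia (ENSMUSG00000021025, chromosome 12 from 55536195 to 55539432, minus strand) encodes IkB-alpha, the main inhibitor that NF-kB resynthesises in feedback and a gene that glucocorticoids raise in some cell types. It had a lowest, median and highest value of 321, 330 and 355 CPM in RANKL+Dex, against 320, 362 and 368 CPM in RANKL. RANKL replicate 1 was the lowest of all 12 libraries, and 4 of the 6 RANKL libraries lay above every RANKL+Dex library. The log2 fold change was −0.08 ± 0.04 (95% interval −0.17 to 0.00, edgeR adjusted p = 0.181), and Nfkbia was lower in 5 of 6 batches, all but batch 1. Neither the edgeR fit of all 12 libraries nor any of the 25 alternative fits called Nfkbia, whose edgeR, DESeq2 and limma adjusted p ran from 0.0536 to 0.443 over those alternatives.

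Of the deubiquitinase genes, Cyld rose and Tnfaip3 did not pass. Cyld (ENSMUSG00000036712, chromosome 8 from 89423656 to 89478573, plus strand) encodes an enzyme that strips K63-linked and linear ubiquitin chains from signalling proteins such as TRAF6, and mice without it form excess osteoclasts. Cyld had a lowest, median and highest value of 121, 124 and 131 CPM in RANKL+Dex, against 106, 111 and 120 CPM in RANKL. The groups did not overlap, although RANKL replicate 6 came within 1 CPM of RANKL+Dex replicate 3. Cyld rose 1.12-fold (log2 fold change 0.16 ± 0.04, 95% interval 0.09 to 0.24, edgeR adjusted p = 0.00634) and was higher in 6 of 6 batches, by 0.06 (batch 6) to 0.31 (batch 4) on the log2 scale. Both Cyld and Nfkbib kept their call in 25 of 25 alternative fits. The highest edgeR adjusted p over the leave-out fits was 0.0481 for Cyld, close to the threshold, and 0.00439 for Nfkbib.

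Tnfaip3 (ENSMUSG00000019850, chromosome 10 from 18876658 to 18891405, minus strand) encodes A20, a ubiquitin-editing enzyme that NF-kB induces and that shuts its signalling down. It had a lowest, median and highest value of 145, 158 and 177 CPM in RANKL+Dex, against 145, 167 and 175 CPM in RANKL. The ranges coincided, and the log2 fold change was −0.03 ± 0.05 (95% interval −0.14 to 0.08, edgeR adjusted p = 0.767).

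**Figure D3:**
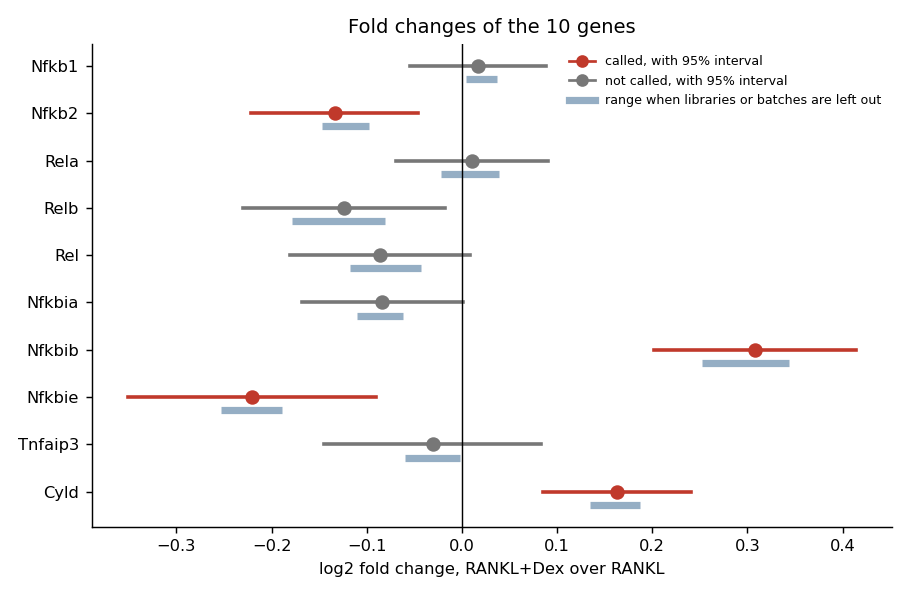
Log2 fold changes (RANKL+Dex over RANKL) of the 10 genes with their 95% intervals in edgeR, red where called and grey where not, and the range over the 18 fits that left out 1 library or 1 batch as blue bars. The range for Nfkbib runs from 0.25 to 0.34 and that for Cyld from 0.13 to 0.19, while that for Rela crosses 0.

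Set against each other within a library, the ratios that hold Nfkbib shifted most of the 9 computed. Per length of exon, the ratio of Nfkbib to Nfkbie was 0.828 ± 0.070 in RANKL+Dex and 0.574 ± 0.070 in RANKL (SD, n = 6), with no overlap (0.733 to 0.900 against 0.456 to 0.659) and a higher value in 6 of 6 batches. The ratio of Nfkbib to Nfkbia was 0.0932 ± 0.0046 in RANKL+Dex and 0.0711 ± 0.0041 in RANKL, again without overlap. Nfkbie over Nfkbia was 0.113 ± 0.013 in RANKL+Dex and 0.125 ± 0.016 in RANKL, with overlap. For the precursors, Nfkb2 over Nfkb1 was 2.80 ± 0.115 in RANKL+Dex and 3.11 ± 0.195 in RANKL, lower in 6 of 6 batches with ranges that just overlapped (2.59 to 2.92 against 2.92 to 3.48). Relb over Rela was 0.433 ± 0.028 and 0.475 ± 0.023, lower in 5 of 6 batches. Nfkb2 over Relb was 2.62 ± 0.170 in RANKL+Dex and 2.64 ± 0.216 in RANKL, higher in 3 batches and lower in 3. These ratios do not depend on the scaling between libraries, and they were not tested because the genes were chosen with earlier results known. They are built from the levels given above, so the shifts with Nfkbib are no separate evidence of its rise.

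**Figure D4:**
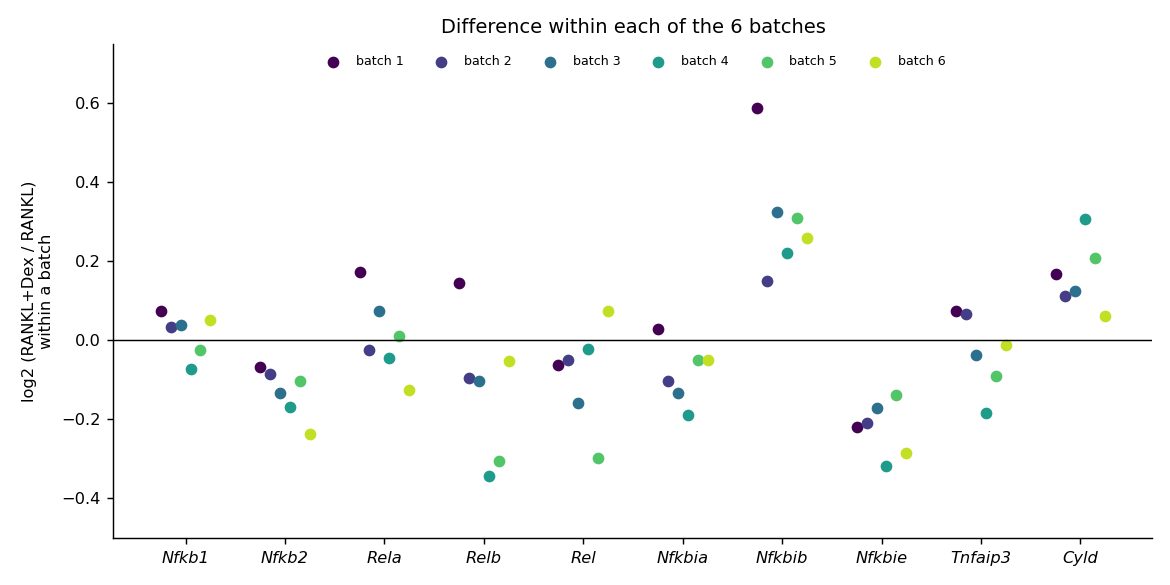
Log2 ratio of the RANKL+Dex library to the RANKL library within each of the 6 batches (colours) for the 10 genes. All 6 points lie above 0 for Nfkbib and Cyld and below 0 for Nfkb2 and Nfkbie, and batch 1 is the highest for Rela, Relb, Nfkbia, Nfkbib and, by a small margin, Nfkb1, Nfkb2 and Tnfaip3.

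Deviations from the group means were compared for 7 pairs of genes over the 12 libraries, which share batches in pairs. The p of no pair passed after adjustment over the 7 (permutation test within groups). The largest correlation was negative, between Nfkbia and Nfkbie (Pearson r = −0.605, permutation p = 0.0482, adjusted 0.337; Spearman rho = −0.587, permutation p = 0.0676, adjusted 0.469), and r was −0.501 without the 2 libraries farthest from the median of Nfkbia. The dimer partners Nfkb2 and Relb had r = 0.190 (adjusted permutation p = 0.649) and rho = 0.350 (0.501), and Nfkb1 and Rela had r = −0.0332 (0.922) and rho = −0.0559 (0.877).

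The rest of the pathway was described by lists of known parts. Of the 3 other IkB proteins, which act in the nucleus, 0 rose and 1 fell, or 2 with the batches as a block, beside 15.5% of all tested genes called and 21.8% with the block. Bcl3, which binds p50 and p52 dimers, fell to 36.4 ± 1.73 CPM in RANKL+Dex, against 41.4 ± 3.24 CPM in RANKL (SD, n = 6, log2 fold change −0.19 ± 0.05, edgeR adjusted p = 0.0261). Its call held in 10 of the 18 fits that left out 1 library or batch (edgeR adjusted p up to 0.105).

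Among 12 genes of the IKK complex and kinases upstream of it, 1 rose and 0 fell, beside 15.5% of all tested genes called. With the block 2 rose and 1 fell, beside 21.8% of all tested genes called. Tbk1, an IKK-related kinase gene, rose to 101 ± 4.40 CPM in RANKL+Dex, against 92.7 ± 3.68 CPM in RANKL (log2 fold change 0.13 ± 0.04, edgeR adjusted p = 0.0363, kept in 6 of the 18 leave-out fits). Its relative Ikbke, named after its values were seen, was at 17.6 ± 4.82 CPM in RANKL+Dex and 24.6 ± 5.12 CPM in RANKL (−0.48 ± 0.16, edgeR adjusted p = 0.0552, and 0.000226 with the block). The core IKK genes Chuk, Ikbkb and Ikbkg, also named after their values were seen, differed by −0.04, −0.07 and 0.10 on the log2 scale, without passing in edgeR (adjusted p = 0.621, 0.209 and 0.113), while Ikbkg passed with the block (0.0420).

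Of 13 TRAF adaptors and ubiquitin ligases, 2 rose and 2 fell, or 2 and 3 with the block, beside 7.98% higher and 7.55% lower over all tested genes and 21.8% called with the block. Traf3, whose protein holds the non-canonical branch in check by driving NIK degradation, fell to 130 ± 8.64 CPM in RANKL+Dex, against 157 ± 13.9 CPM in RANKL (−0.27 ± 0.06, edgeR adjusted p = 0.00378). Traf1, an NF-kB induced adaptor, fell to 152 ± 9.13 CPM in RANKL+Dex, against 174 ± 3.14 CPM in RANKL (−0.20 ± 0.04, edgeR adjusted p = 0.00269). Both were without overlap between groups, as were 3.17% of tested genes on that side, and both kept their calls in all 18 leave-out fits. Birc2, which encodes the ubiquitin ligase cIAP1, rose to 42.6 ± 2.49 CPM in RANKL+Dex, against 37.1 ± 1.86 CPM in RANKL (0.20 ± 0.05, edgeR adjusted p = 0.00979), and Sqstm1, which encodes p62, a scaffold that brings CYLD to TRAF6, rose to 942 ± 41.1 CPM in RANKL+Dex, against 865 ± 26.2 CPM in RANKL (0.12 ± 0.03, edgeR adjusted p = 0.0226). The call of Sqstm1 ended without RANKL replicate 3 and without batch 1, 2, 4 or 5 (edgeR adjusted p between 0.0506 and 0.0922).

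The counts in the next 3 lists stand beside 7.98% higher and 7.55% lower over all tested genes. Of 13 partners of A20 and CYLD and other brakes, 0 rose and 1 fell: Tnip3, an A20-binding protein gene, was at 16.7 ± 2.44 CPM in RANKL+Dex and 20.7 ± 2.38 CPM in RANKL (−0.30 ± 0.10, edgeR adjusted p = 0.0401), a call kept in 5 of the 18 leave-out fits. For the ligase that degrades IkB proteins, 1 of 6 tested genes rose and 0 fell. That gene was Rbx1, the RING subunit shared by cullin ligases, at 68.9 ± 3.84 CPM in RANKL+Dex and 61.7 ± 3.24 CPM in RANKL (0.16 ± 0.05, edgeR adjusted p = 0.0272, kept in 9 of the 18). Among 11 coactivators and corepressors, 1 rose (Rps3, a ribosomal protein that also binds RELA, 0.18 ± 0.05, edgeR adjusted p = 0.0207, kept in 15 of the 18) and 1 fell (Ep300, an acetyltransferase, −0.15 ± 0.05, edgeR adjusted p = 0.0399, kept in 5 of the 18). Leaving out RANKL+Dex replicate 1 or batch 1 moved the calls in the last list to 1 higher and 4 lower, and leaving out batch 2, 3 or 6 left 0.

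Most textbook target genes of NF-kB were not called, and those called were lower more often than higher. Of 43 listed, 33 passed the filter, of which 8 fell (24.2%, against 7.55% of all tested genes) and 1 rose (3.03%, against 7.98%), with a median log2 fold change of −0.12 against −0.00. The list was drawn up with earlier results of these data known, so the count is no independent evidence of a direction. Lcn2, which encodes the siderophore-binding lipocalin 2, fell to 0.952 ± 0.488 CPM in RANKL+Dex, against 2.92 ± 0.510 CPM in RANKL (−1.61 ± 0.25, edgeR adjusted p = 0.000266). All 5 neutrophil markers that passed the filter fell as well, and their part in the fall of Lcn2 was not tested. Il1rn, which encodes the interleukin-1 receptor antagonist, fell to 116 ± 9.28 CPM in RANKL+Dex, against 152 ± 17.9 CPM in RANKL (−0.38 ± 0.07, edgeR adjusted p = 0.00162). Marcksl1, which encodes an actin-linked kinase substrate, rose to 44.0 ± 4.69 CPM in RANKL+Dex, against 30.4 ± 1.62 CPM in RANKL (0.53 ± 0.07, edgeR adjusted p = 2.9e-05). The other falls, named after their values were seen, were in Traf1, Cd40, Tnf, Bcl2a1d, Ccl22 and Ccnd1, with log2 fold changes from −0.83 to −0.20. Among them, Ccnd1 (edgeR adjusted p = 0.0498) kept its call in 5 of the 18 leave-out fits and lost it with DESeq2 (adjusted p = 0.0818) and with DESeq2's size factors in edgeR (0.0509). Ccl22 kept its call in 7 of the 18, Bcl2a1d in 16 and Tnf in 17. Like Lcn2, 3 of these genes stood at low levels in both groups. Cd40, Bcl2a1d and Ccl22 were at 1.59, 1.33 and 0.784 CPM in RANKL+Dex, against 2.57, 2.21 and 1.40 CPM in RANKL. Reads of Bcl2a1d cannot be told apart with certainty from those of its near-identical copies. Without batch 4, 4 of the target genes fell and 1 rose.

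**Figure D5:**
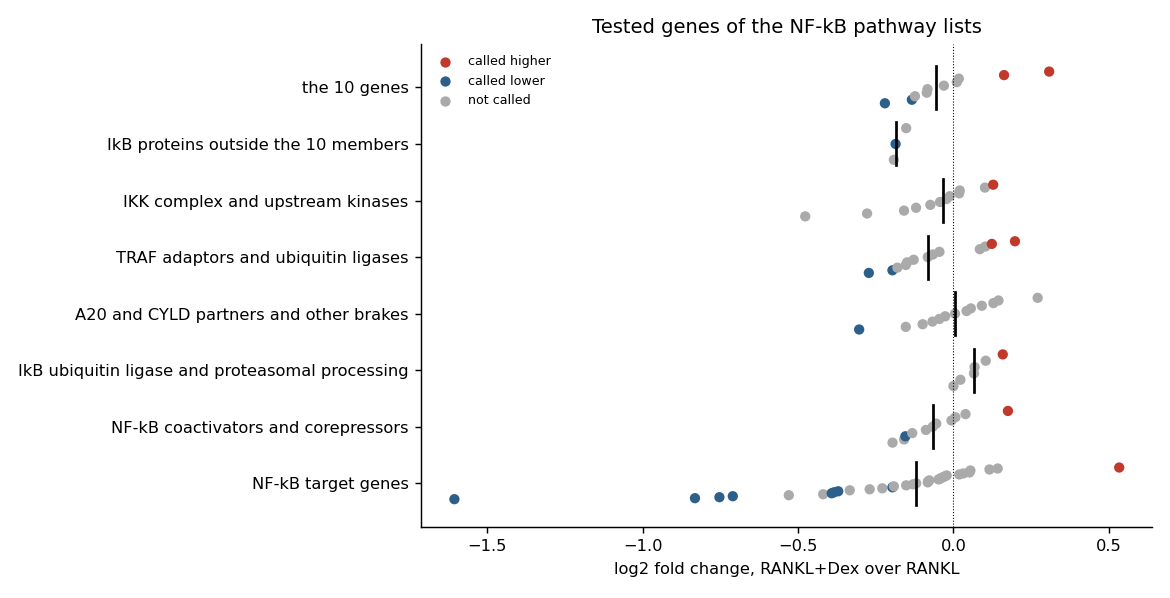
Log2 fold changes (RANKL+Dex over RANKL) of the tested genes in the set of 10 and in 7 pathway lists, red where called higher, blue where called lower and grey where not called, with each list's median as a black bar. The target genes reach from −1.61 (Lcn2) to 0.53 (Marcksl1), while called genes in the other lists lie between −0.30 and 0.31. Some genes stand in 2 lists.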

How the data were processed

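The submitters deposited raw read counts per Ensembl gene, as whole numbers in 12 columns, matched to libraries by the names in the labels. FastQC 0.11.5, HISAT2 2.1.0, StringTie 1.3.3b, DESeq 1.28.0 and GRCm39 are named per the submitters' processing notes, without roles. How reads were assigned to genes, whether strand was used and which annotation served is not given in these sources.

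Genes were filtered with filterByExpr (minimum count 10, minimum total 15), leaving 13775, and RANKL+Dex was tested against RANKL with edgeR 4.0.16 (quasi-likelihood, TMM, two-sided, R 4.3.3), with Benjamini-Hochberg adjustment over all tested genes and a threshold of 0.05. The SE of a log2 fold change came from the F statistic. Library totals were 16820193 to 28523595 counts, and counting error covers only part of the spread. DESeq2 1.42.0, limma 3.58.1 (voom), other scalings and filters, a block and leaving out libraries or batches were alternatives. The leave-out fits held no block. The scripts were tested on simulated data. CPM per kb used merged exon lengths of GENCODE M21 (GRCm38), matched by Ensembl ID for 99.8% of tested genes. Motifs were counted per 250-base RefSeq window. Correlations used 100000 permutations within groups, and cell type shares the exact test over 924 arrangements (smallest p 0.00216).

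The labels give batches 1 to 6, shared between the groups, which pairs the libraries. Correlations of same-numbered deviations were 0.186, 0.269, 0.0529, 0.0423, 0.357 and 0.0799, 0.165 on average, beside −0.0329 between unlike numbers. A single batch, with 1 library per group, gives a difference and no test of its own, and the block tests the treatment within batches. The design text speaks of biological replicates and the extraction protocol of triplicates. Nothing says that each culture came from its own mouse, and p-values cover only the variation among the cultures sequenced, which may be technical. Libraries of a group differed by more than sampling noise (chi-square divided by the number of genes, 3.01 to 17.2). The genes and lists were chosen with earlier results of these data known. All 10 genes are named, with up to 2 higher and 2 lower called genes per pathway list by smallest p. Other names are marked as chosen after values were seen.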

Additional observations from a re-analysis of the deposited data

Results flagged for a closer look

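In 4 of 74 groups of 6 libraries checked over the 10 genes and 27 list genes, the highest or lowest library was separated from the nearest other by more than 0.625 of the group's whole range (Dixon's criterion, which chance meets in about 1 group in 20). Nfkb2 reached 230 CPM in RANKL replicate 6, with the next RANKL library at 207 CPM. Without RANKL replicate 6 the log2 fold change of Nfkb2 was −0.10 (edgeR adjusted p = 0.0885). Sqstm1 reached 914 CPM in the same library, with the next at 865 CPM. Nfkbid, which encodes a nuclear IkB protein, reached 66.2 CPM in RANKL+Dex replicate 1, with the next RANKL+Dex library at 46.9 CPM and the RANKL libraries at 50.8 to 57.8 CPM. Ikbkg was lowest in RANKL+Dex replicate 5 at 160 CPM, with the next RANKL+Dex library at 175 CPM.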

How the results depend on the processing

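Over 25 alternatives, 225 of 250 values of the 10 genes kept their direction and their side of the threshold, 19 lost a call (Nfkb2 and Nfkbie), 2 gained a call (Relb) and 4 turned round (Rela). Rela, not called in any fit, had a log2 fold change of −0.00092 with library totals alone, and from −0.022 to 0.039 over the fits that left out a library or batch. The number of the 10 genes called was 4, with 2 to 5 over those leave-out fits: 2 without RANKL+Dex replicate 4 and without batch 3, 4 or 6, and 5 without RANKL+Dex replicate 1 and without batch 1. Over the whole table they gave 1339 (without batch 4) to 2493 calls (without RANKL+Dex replicate 1), with 1409 without batch 6, beside 2139. With the batches as a replicate block edgeR called 3000 genes, of which 2125 were among the 2139, and the same 4 of the 10; the block changed no call among the 10. DESeq2 called 2427 genes, limma voom 2119 and library totals alone 2085 (908 higher and 1177 lower, beside 1099 and 1040 with TMM), and the median log2 fold change of all genes shifted by no more than 0.012 in any alternative. Counts in the pathway lists moved over the leave-out fits too, with 0 to 5 coactivators, 0 to 3 IKK genes and 5 to 9 target genes called. The cause of these changes was not tested. The standard errors of the 10 log2 fold changes, 0.03 to 0.06, limit what 6 libraries per group resolve.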

Other observations

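Nfkbid was chosen after its values were seen. Outside RANKL+Dex replicate 1 its 5 RANKL+Dex libraries lay between 40.8 and 46.9 CPM, all below the 6 RANKL libraries at 50.8 to 57.8 CPM. All libraries together gave a difference of −0.19 on the log2 scale (edgeR adjusted p = 0.177, and 0.0364 with the batches as a block), which was −0.31 when RANKL+Dex replicate 1 was left out (0.000271). That library was picked out by its Nfkbid value, so the separation and the p without it are no test. Leaving it out also gave 2493 calls over the whole table, beside 2139 with all libraries. Over the 18 fits that left out a library or batch the edgeR adjusted p ran from 0.000271 to 0.415. Relb was also highest of its group in that library, at 66.6 CPM.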
